A study of Arabidopsis thaliana with 6 samples.

Results

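The genes described here are 46 nuclear genes of Arabidopsis that encode the light-harvesting antenna, the nuclear subunits of both photosystems, the small subunit of Rubisco and Rubisco activase. They were taken by gene identifier, as named subunits, from the 33602 genes in the deposited tables. They comprise 6 LHCA and 14 LHCB antenna genes, 12 PSA genes of photosystem I, 9 PSB genes of photosystem II, and 5 genes of Rubisco (RBCS1A, RBCS1B, RBCS2B, RBCS3B and RCA). RNA was sequenced from whole seedlings, in 3 libraries of acinus-2 pnn and 3 libraries of WT. The acinus-2 pnn plants, which the paper calls acinus-2 pinin-1, carry T-DNA insertions in both AtACINUS and AtPININ; it is 1 double mutant line, and no single mutant was among the libraries. Both genotypes were in the Col-0 ecotype, were labelled as 12 days old and grew in continuous light with no other treatment, while the paper's text gives a different age. The labels number the acinus-2 pnn libraries 6, 7 and 12 and the WT libraries 2, 4 and 5, and values per library follow these orders.

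AtACINUS and AtPININ are relatives of RNA-binding proteins that accompany the splicing machinery. Photosynthesis in plants depends on chlorophyll-binding antenna proteins, which collect light and pass the energy to the reaction centres of photosystem I and photosystem II. Most of the reaction centre core is encoded in the chloroplast genome, whereas the antenna and many small or peripheral subunits are made from nuclear genes and imported. Rubisco, the enzyme that fixes carbon dioxide, likewise joins a chloroplast-encoded large subunit to small subunits from the nuclear RBCS family, and Rubisco activase keeps it working. In green seedlings these nuclear genes are among the most abundantly transcribed, respond to light and to signals from the plastid, and include targets of the GLK transcription factors.

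The libraries held between 18890178 and 27622690 reads on genes, of which the single most abundant gene took between 10.4% and 12.7%. Genes of the chloroplast and mitochondrial genomes took between 11.3% and 14.3%. Libraries of one genotype differed by more than sampling noise, so that none was counted as a repeat of another. Reads of both targeted genes differed between the genotypes on the sides of the insertions. The part of AtACINUS downstream of the insertion had 0, 1 and 1 reads in acinus-2 pnn, against 853, 1300 and 1255 in WT. The part of AtPININ upstream of its insertion had 17.1, 16.5 and 17.1 reads per 1e6 in acinus-2 pnn, against 37.3, 36.9 and 34.9 in WT. The exon with the insertion and those downstream had more, with 82.2, 107 and 91.8 in acinus-2 pnn, against 38.6, 35.3 and 32.8 in WT. Reads across the insertions were not examined. The labels do not say whether the libraries of a genotype came from separate cultures, although the paper calls them biological replicates.

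Several kinds of sequence bear on the results below. The first is the end of the coding region of RCA, where pre-mRNA is cut at either of a pair of donor sites. These lie 11 bases apart and lead to the long or the short activase protein. The stretch on chr2:16571160-16571211 (minus strand, TAIR10.1) is shown with the GT of each donor in capitals.
RCA donors: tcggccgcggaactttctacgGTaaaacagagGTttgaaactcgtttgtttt
The second kind is the start of the genes. Among the 250 bases before each annotated start, 4 motifs were searched on both strands, namely CACGTG (the G-box bound by bZIP and bHLH factors), GATAAG (the core of the I-box of light-responsive promoters), CCAATC (a motif named for GLK targets) and AAAATATCT (the evening element of clock-controlled genes). The stretches of 150 bases before LHCB2.3 and RBCS2B, which showed the largest declines, and before PSAE2, which showed none, are given with these motifs in capitals. They lie on chr3:10255756-10255905 (plus strand), chr5:15382072-15382221 (minus strand) and chr2:8736584-8736733 (plus strand).
LHCB2.3: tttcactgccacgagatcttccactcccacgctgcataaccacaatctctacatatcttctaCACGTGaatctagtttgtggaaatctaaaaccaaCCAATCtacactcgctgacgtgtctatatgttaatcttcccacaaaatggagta
RBCS2B: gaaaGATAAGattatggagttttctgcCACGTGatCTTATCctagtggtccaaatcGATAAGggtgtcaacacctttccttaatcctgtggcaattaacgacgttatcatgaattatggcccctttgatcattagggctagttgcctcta
PSAE2: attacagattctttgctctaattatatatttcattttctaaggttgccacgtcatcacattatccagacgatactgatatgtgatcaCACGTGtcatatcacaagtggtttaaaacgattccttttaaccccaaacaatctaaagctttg
The third kind is the introns whose retention fell most clearly. The 87-base intron of LHCA1 (chr3:20340229-20340315, minus strand), the 106-base intron 4 of LHCB5 (chr4:6408917-6409022, plus strand) and the 98-base intron 1 of LHCB3 (chr5:22038550-22038647, plus strand) are shown with their first and last bases in capitals.
LHCA1 intron: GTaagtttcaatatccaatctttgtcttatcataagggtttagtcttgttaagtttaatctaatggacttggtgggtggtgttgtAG
LHCB5 intron 4: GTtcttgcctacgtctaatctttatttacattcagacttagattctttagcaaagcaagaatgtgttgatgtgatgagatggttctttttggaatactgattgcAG
LHCB3 intron 1: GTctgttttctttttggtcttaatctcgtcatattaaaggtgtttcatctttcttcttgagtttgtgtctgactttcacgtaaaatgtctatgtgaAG
All sequences were read from the RefSeq copy of the TAIR10.1 genome.

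RNA of the photosynthesis genes was lower in acinus-2 pnn than in WT, by a modest amount in most of them. Together the 46 genes took 5.64%, 5.54% and 5.68% of the reads on genes in the acinus-2 pnn libraries, against 7.02%, 7.52% and 6.84% in the WT libraries. Each of the 5 groups took a smaller share in every acinus-2 pnn library than in any WT library, from 0.723 of the WT mean for the PSA genes to 0.822 for the PSB genes. Levels were compared gene by gene with the quasi-likelihood test of edgeR across all 20962 genes with enough reads, with Benjamini-Hochberg adjustment. At an adjusted p-value under 0.02, all 46 genes could be tested, 40 were lower and 0 were higher in acinus-2 pnn. Among all tested genes, 19.4% were lower and 18% were higher by the same rule. At an unadjusted p under 0.05, 43 were lower and 1, LHCB1.2, was higher, where 27% of all tested genes were lower and 26% higher. DESeq2 called 41 lower and 0 higher at the adjusted threshold, against 16.7% and 15.7% of all genes. The median log2 fold change of the 46 genes was -0.39, and that of all tested genes was 0.00. On TMM-scaled counts, every acinus-2 pnn library lay below every WT library in 42 of the 46 genes and above in 0, where 28.2% of all tested genes lay below and 27% above. On RPKM, PSBO1 overlapped and PSAE2 lay above WT in every acinus-2 pnn library. Since whole seedlings were used, fewer green cells and less RNA per cell cannot be told apart.

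The declines were small next to the fold change of 2 that the study used for its calls. With that fold added to the test, only LHCB2.3 was called lower and 0 genes were called higher, whereas 4.88% of all tested genes were called lower and 4.29% higher. The other 39 called genes had log2 fold changes between -0.81 and -0.25. A test against a fold change of 1.5 called 4 of the 46 genes lower (LHCB2.3, RBCS2B, LHCB4.3 and PSAK) and 0 higher, where it called 4.08% of all tested genes lower and 3.98% higher. The medians were alike at different levels of expression. The 23 genes with the higher RPKM in WT and the 23 with the lower RPKM had medians of -0.39 each, with 20 called lower in each set. They were also alike with and without introns. The 11 genes with a single exon in the deposited model had a median of -0.38, with 8 called lower, and the 35 genes with introns had a median of -0.39, with 32 called lower.

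**Figure D1:**
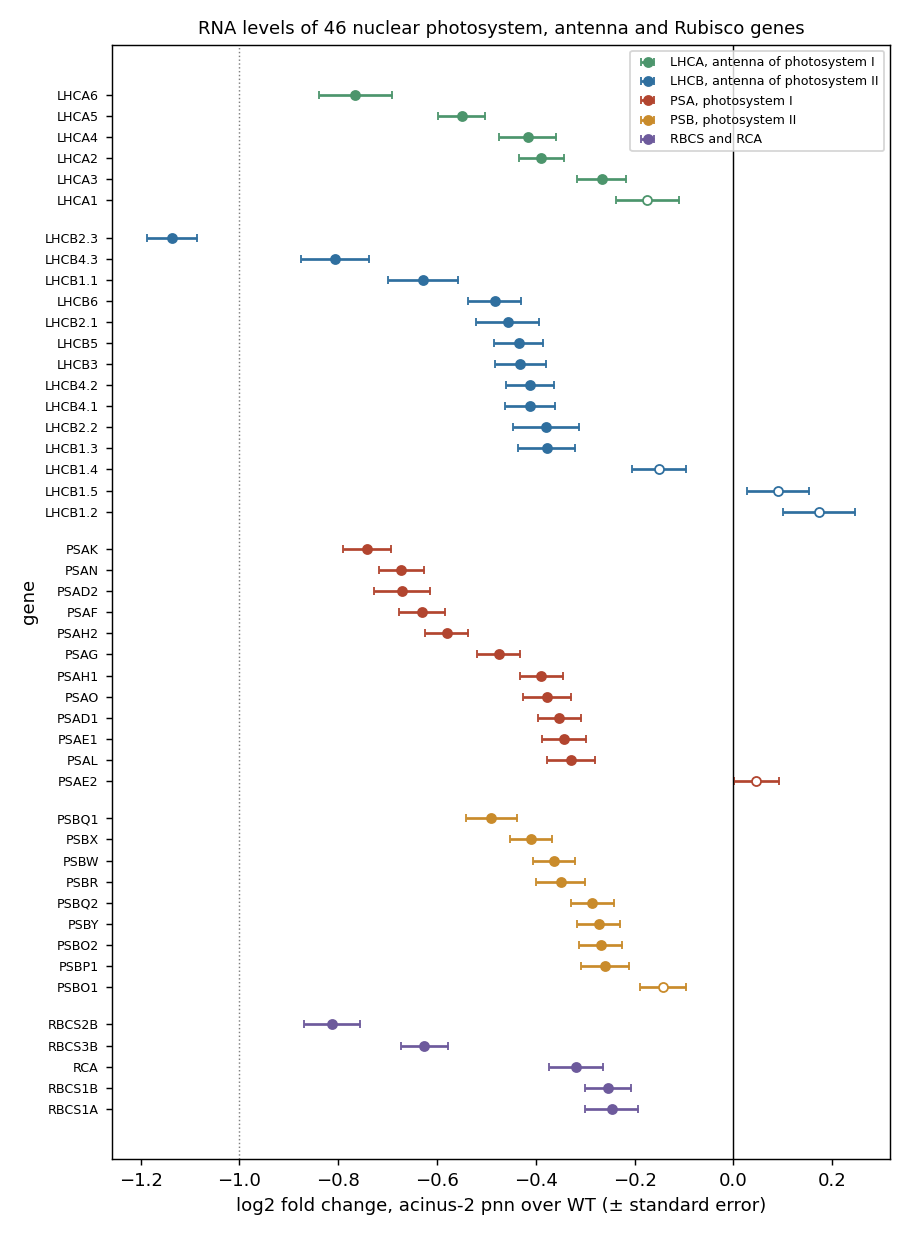
Log2 fold change of the 46 genes, acinus-2 pnn over WT, on the horizontal axis, with bars for the standard error, genes grouped by role on the vertical axis and open circles for genes that did not pass an adjusted p of 0.02. The dotted line marks a fold change of 2, which LHCB2.3 alone passed, and 40 genes are lower.

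The antenna of photosystem I is built from LHCA1 to LHCA4, to which the scarce LHCA5 and LHCA6 add. Both LHCA5 and LHCA6 link photosystem I with the NDH complex of cyclic electron flow. Of these 6 genes, 5 were lower, the group's median log2 fold change was -0.40, and the scarce members fell most. LHCA6 (AT1G19150) had 35.7, 35.7 and 37.5 RPKM in acinus-2 pnn, against 68.6, 58.5 and 57.3 RPKM in WT. The log2 difference was -0.77 ± 0.07 (SE), with an adjusted p of 4.9e-06 by edgeR. LHCA5 (AT1G45474) had 44.2, 44.6 and 48.5 RPKM in acinus-2 pnn, against 66.3, 69.0 and 64.7 RPKM in WT, a log2 fold change of -0.55 (standard error 0.05). The genotypes were separated in both genes by more than the range within either. LHCA1, a core antenna protein, had 857, 836 and 847 RPKM in acinus-2 pnn, against 873, 1098 and 891 RPKM in WT. The acinus-2 pnn libraries were again all below, but the log2 fold change of -0.17 did not pass the test (adjusted p = 0.041 from edgeR). It was -0.10 without WT replicate 4, the highest library, and passed at -0.22 without WT replicate 2. LHCA2, LHCA3 and LHCA4 lay between these, with log2 fold changes of -0.39, -0.27 and -0.42.

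The antenna of photosystem II comprises the trimers of LHCII, made of LHCB1, LHCB2 and LHCB3, and the monomeric LHCB4 (CP29), LHCB5 (CP26) and LHCB6 (CP24), which join the trimers to the core. Among the 14 LHCB genes, 11 were lower and 3 did not pass the test, and their median log2 fold change was -0.42. LHCB2.3 (AT3G27690, chr3:10255906-10257489) declined most of all 46 genes, with 141, 141 and 161 RPKM in acinus-2 pnn against 314, 353 and 301 RPKM in WT. Its log2 fold change was -1.14 ± 0.05 (SE), with an adjusted p of 1.1e-08 by edgeR, and stayed between -1.17 and -1.10 under every alternative tried. LHCB4.3, a scarce form of CP29, had 14.3, 13.3 and 14.4 RPKM in acinus-2 pnn, against 24.0, 27.3 and 21.9 RPKM in WT, a log2 fold change of -0.81 (standard error 0.07). The main forms LHCB4.1 and LHCB4.2 had the same log2 fold change of -0.41 each. In LHCB2.1, LHCB2.2, LHCB3, LHCB5 and LHCB6 the log2 fold change ranged from -0.48 to -0.38.

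The 5 LHCB1 genes did not move together. LHCB1.3, the most abundant of the 46 genes, had 5992, 5965 and 6070 RPKM in acinus-2 pnn, against 7728, 8189 and 7419 RPKM in WT (log2 fold change -0.38). LHCB1.1 (AT1G29920) had 1107, 1059 and 1134 RPKM in acinus-2 pnn, against 1517, 1987 and 1589 RPKM in WT (log2 fold change -0.63). Both were lower in every acinus-2 pnn library. LHCB1.2, the neighbour of LHCB1.1 on chromosome 1, had 1630, 1566 and 1526 RPKM in acinus-2 pnn, against 1256, 1623 and 1308 RPKM in WT. Its log2 fold change of 0.17 (standard error 0.07) did not pass the test (adjusted p = 0.072 from edgeR), and WT replicate 4 lay within the range of the acinus-2 pnn libraries. Without that library the value was 0.26, and it passed at an adjusted p of 0.0082. LHCB1.5 (AT2G34420) had 2285, 2260 and 2314 RPKM in acinus-2 pnn, against 2019, 2453 and 1960 RPKM in WT, which was not past the test at a log2 fold change of 0.09. LHCB1.4 had a log2 fold change of -0.15, not past the test at an adjusted p of 0.041 from edgeR.

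LHCB1.2 was above LHCB1.1 in acinus-2 pnn and below it in WT. The RPKM of LHCB1.2 was 1.47, 1.48 and 1.35 times that of LHCB1.1 in acinus-2 pnn, against 0.828, 0.817 and 0.823 times in WT. Within each genotype this ratio varied little, and WT replicate 4 did not stand apart in it. These genes are close copies. The coding regions of LHCB1.1, LHCB1.2 and LHCB1.3 are between 95.6% and 96.4% identical, so that some reads could be placed on the wrong copy. The deposited column for shared reads gave 0% for LHCB1.1 and LHCB1.2, and 1.85% for LHCB1.5. Of the windows of 100 bases in RefSeq exons, 4.44% for LHCB1.1, 1.51% for LHCB1.2 and 3.27% for LHCB1.3 occurred elsewhere in the genome without a mismatch. These exons are longer than the deposited ones, on which reads were counted. How the remaining reads were divided among the copies was not tested.

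**Figure D2:**
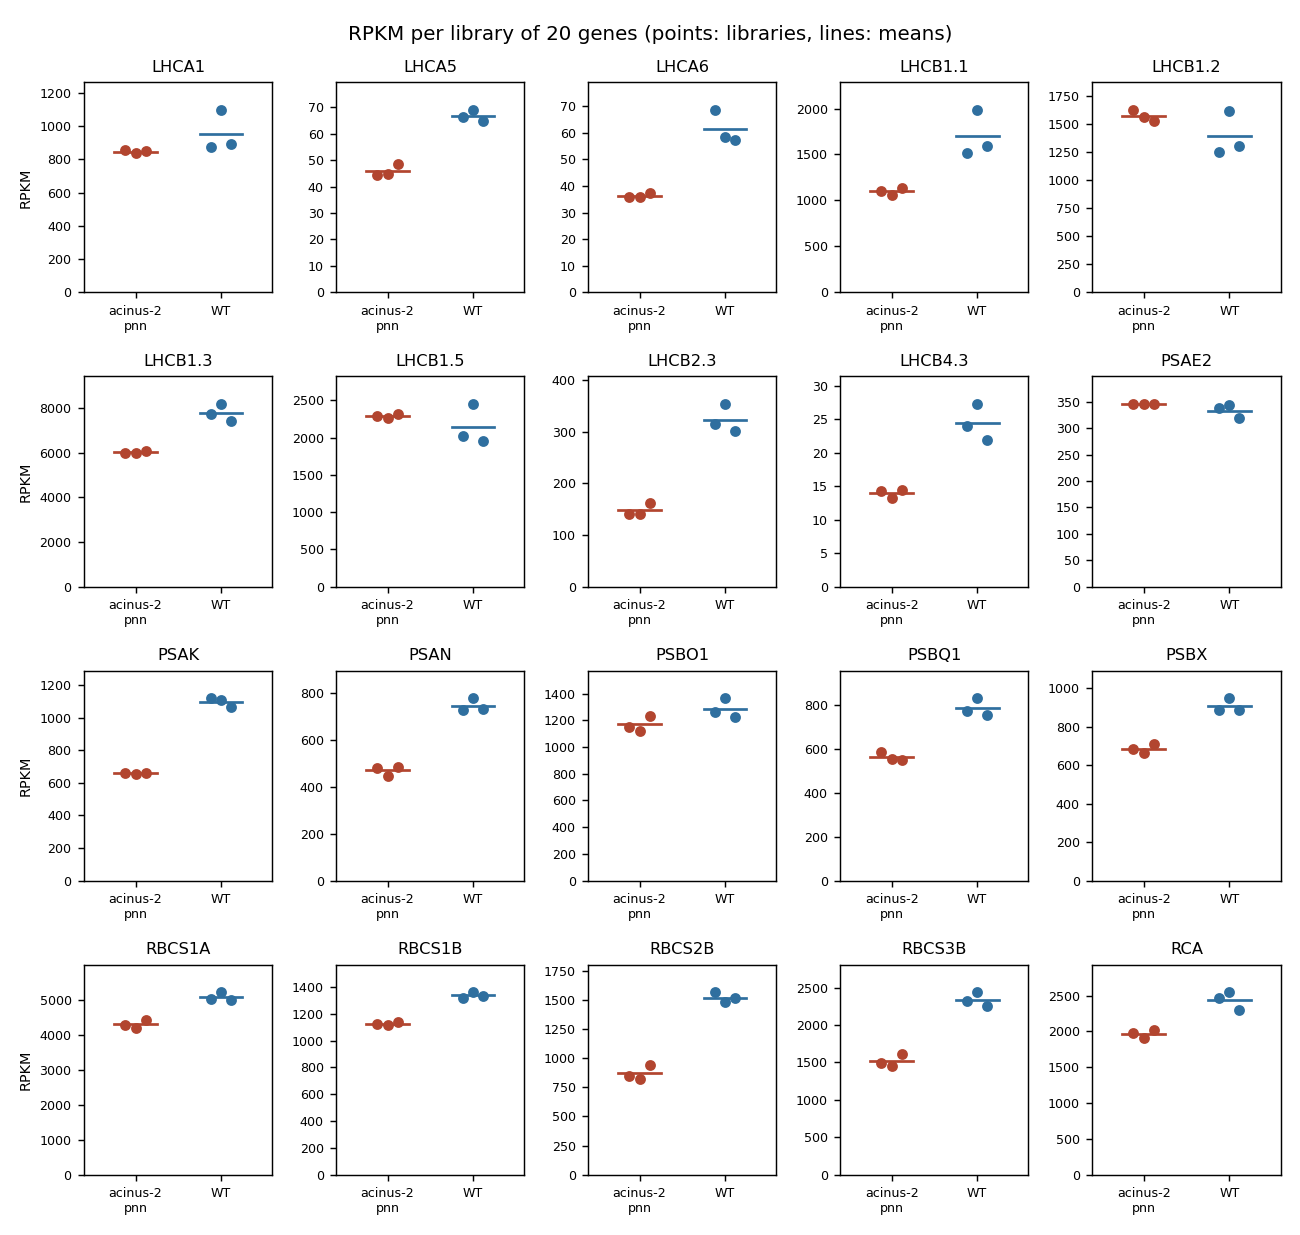
RPKM per library (vertical axes from 0) of 20 genes, with acinus-2 pnn left of WT, a point for each library and a line for the mean. LHCB2.3, PSAK and RBCS2B are well separated, while LHCB1.2, LHCB1.5 and PSBO1 overlap between the genotypes.

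Photosystem I receives its nuclear subunits from the PSA genes. PSAD, PSAE and PSAF form the sites where ferredoxin and plastocyanin dock, PSAH, PSAL and PSAO lie where LHCII docks, PSAG and PSAK flank the core and PSAN lies on the lumenal side. Of the 12 genes, 11 were lower, and the median log2 fold change of -0.43 was the lowest of the 5 groups. PSAK (AT1G30380) had 659, 658 and 663 RPKM in acinus-2 pnn, against 1121, 1108 and 1067 RPKM in WT. Its log2 fold change was -0.74 ± 0.05 (SE), with an adjusted p of 2.0e-07 by edgeR. PSAN (AT5G64040) had 478, 446 and 485 RPKM in acinus-2 pnn, against 725, 778 and 732 RPKM in WT (log2 fold change -0.67). In each, the highest acinus-2 pnn library lay far below the lowest WT library. PSAD2, PSAF and PSAH2 followed with log2 fold changes of -0.67, -0.63 and -0.58, and PSAG, PSAH1, PSAO, PSAD1, PSAE1 and PSAL ranged from -0.48 to -0.33. PSAE2 was not lower. It had 346 RPKM in each acinus-2 pnn library, against 338, 344 and 319 RPKM in WT, so that the highest WT library nearly met the acinus-2 pnn libraries. The test gave a log2 fold change of 0.05 ± 0.05 (SE) with an adjusted p of 0.44 by edgeR. For PSAH1, 25.5% of the reads and 2.95% of the PSAE2 reads were marked as shared with another gene or place. The log2 fold change of PSAH1 stayed between -0.42 and -0.37 under every alternative, one of which left those reads out.

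The nuclear PSB genes encode the oxygen-evolving proteins PSBO, PSBP and PSBQ and small subunits of photosystem II. All 9 had a fold change below zero, 8 passed the test and the median log2 fold change was -0.29. PSBQ1, an oxygen-evolving protein, had 583, 551 and 547 RPKM in acinus-2 pnn, against 769.5, 830.4 and 753 RPKM in WT (log2 fold change -0.49, standard error 0.05). PSBX, a small membrane subunit, had 683, 662 and 712 RPKM in acinus-2 pnn, against 886, 950.1 and 886 RPKM in WT (log2 fold change -0.41). The separation in both exceeded the spread between libraries. PSBO1, the main form of the manganese-stabilizing protein, had 1154, 1121 and 1232 RPKM in acinus-2 pnn, against 1264, 1367 and 1225 RPKM in WT. The highest acinus-2 pnn library lay above the lowest WT library, and the log2 fold change of -0.14 did not pass (adjusted p = 0.025 from edgeR). The minor form PSBO2 was lower, at -0.27. The other 5 genes of the group, PSBP1, PSBQ2, PSBR, PSBW and PSBY, ranged from -0.36 to -0.26.

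All 5 Rubisco genes were lower in acinus-2 pnn (median log2 fold change -0.32), but to unequal extents. RBCS2B (AT5G38420) had 849, 823 and 939.6 RPKM in acinus-2 pnn, against 1566, 1478 and 1512 RPKM in WT. Its log2 fold change was -0.81 ± 0.06 (SE), with an adjusted p of 3.2e-07 by edgeR. RBCS3B (AT5G38410) had 1492, 1454 and 1619 RPKM in acinus-2 pnn, against 2318, 2439 and 2251 RPKM in WT (log2 fold change -0.63). Both lie in a tandem array on chromosome 5 with RBCS1B, whose decline was smaller. RBCS1B (AT5G38430) had 1120, 1119 and 1140 RPKM in acinus-2 pnn, against 1315, 1362 and 1334 RPKM in WT (log2 fold change -0.25). RBCS1A, which lies apart on chromosome 1 and is the most abundant small subunit gene, had 4275, 4177 and 4424 RPKM in acinus-2 pnn, against 5008, 5215 and 4983 RPKM in WT. Its log2 fold change was also -0.25 (adjusted p = 0.0025 from edgeR), and it missed the threshold when limma was run on the RPKM values. RCA, encoding Rubisco activase, had 1978, 1904 and 2013 RPKM in acinus-2 pnn, against 2471, 2548 and 2300 RPKM in WT (log2 fold change -0.32). In no Rubisco gene did the genotypes overlap. The coding regions of the array genes are between 96.7% and 97.3% identical. Of the windows in RefSeq exons, 8.20% for RBCS1B and 11.8% for RBCS3B occur elsewhere without a mismatch, against 0% for RBCS2B and RBCS1A. For RBCS1B and RBCS3B these exons are longer than the deposited ones, and the share of the counted bases was not measured. The deposited column marked 0% of the reads of the RBCS genes as shared.

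The declines were uneven within families of copies, which was examined as the share of each gene in the reads of its family. In families of 2 copies one share fixes the other, and the same comparison was not made for other gene families. With 3 libraries against 3, a two-sided exact permutation test cannot give a p below 0.1, so that no share can pass. The shares named next reached that p, their libraries not overlapping. LHCB2.3 took 14.1% ± 0.596 of the reads of the 3 LHCB2 genes in acinus-2 pnn and 21.3% ± 1.25 in WT (SD, n = 3 each). LHCB1.5 took 19.4% ± 0.0636 of the LHCB1 reads in acinus-2 pnn and 15.3% ± 0.632 in WT (SD, n = 3 each). RBCS1A took 58.1% ± 0.458 of the RBCS reads in acinus-2 pnn and 52.4% ± 0.293 in WT (SD, n = 3 each). PSAE2 took 29.0% ± 0.433 of the PSAE reads in acinus-2 pnn and 23.8% ± 0.760 in WT (SD, n = 3 each). For PSAD1, the share was 69.2% ± 1.16 in acinus-2 pnn and 64.3% ± 1.06 in WT (SD, n = 3 each). The shares of LHCB4.1, LHCB4.2 and LHCB1.4 overlapped. Summed over copies, every family was lower in RPKM in acinus-2 pnn, from 0.679 of the WT mean for LHCB2 to 0.891 for PSBO, and the LHCB1 family stood at 0.847.

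**Figure D3:**
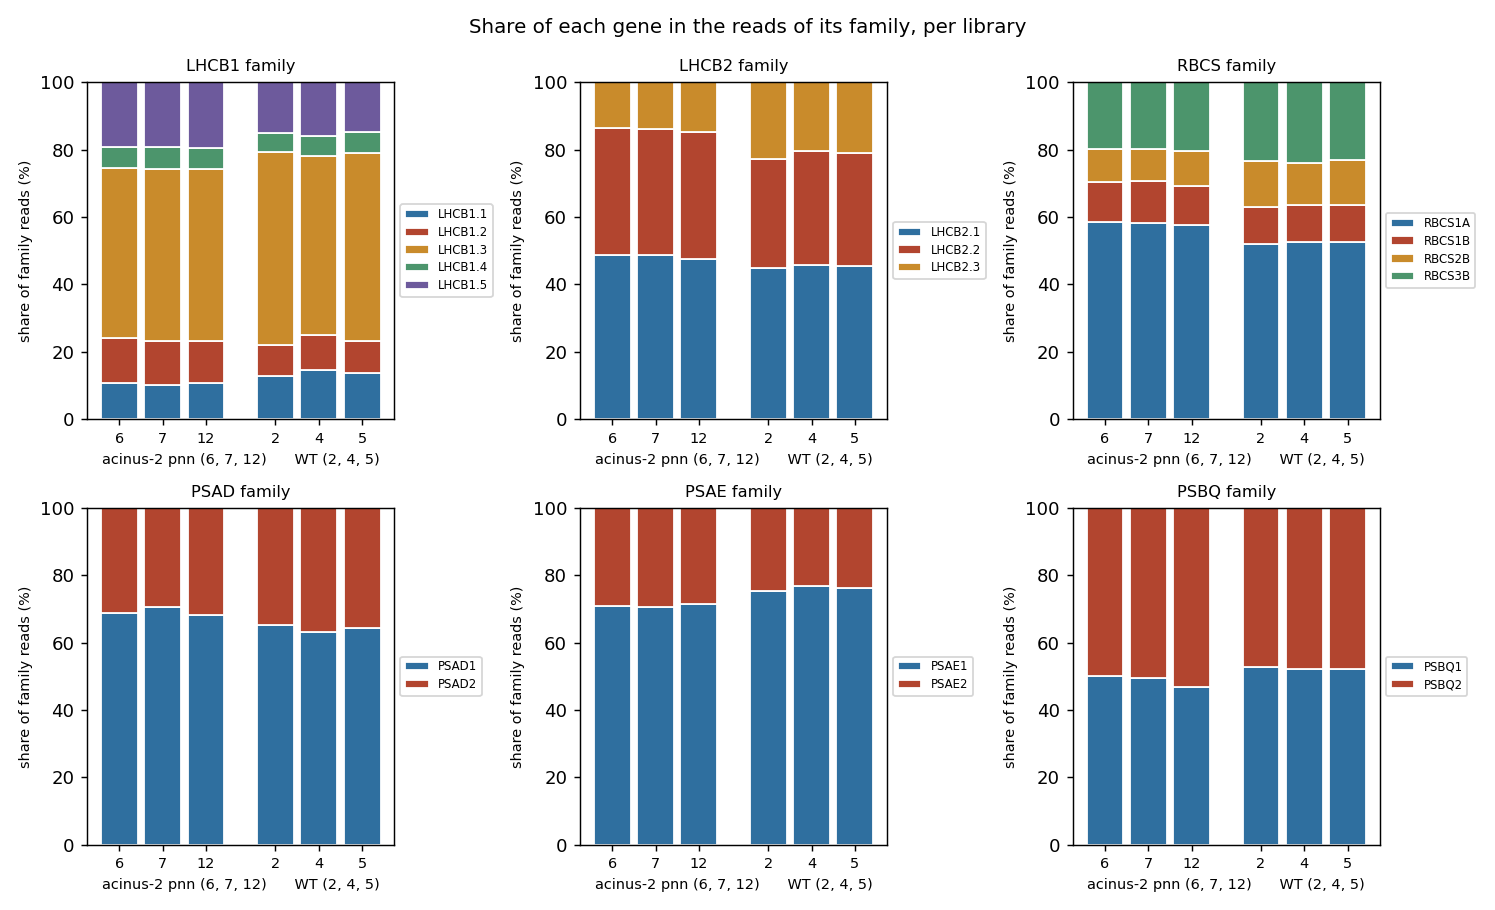
Share of each gene in the reads of its family (vertical axis, percent), as stacked bars for each library with the acinus-2 pnn libraries 6, 7 and 12 left of the WT libraries 2, 4 and 5. LHCB2.3 shrinks and LHCB1.2 and RBCS1A widen in acinus-2 pnn, with little variation between libraries of a genotype.

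The motifs searched upstream of the starts were each held by a minority of the genes. The G-box was found before 9 of the 46 genes (19.6%), against 6.49% of 27443 protein-coding genes. The I-box core was found before 11 (23.9%, against 12.3% of all), CCAATC before 12 (26.1%, against 10.2%) and the evening element before 1 (2.17%, against 2.36%). CCAATC was concentrated in the antenna genes, before 3 of 6 LHCA and 7 of 14 LHCB genes, and was found before 0 of 12 PSA genes. RBCS2B held 3 I-box cores around a G-box, as shown above. In their windows, RBCS1A, RBCS1B and RBCS3B held none of the 4 motifs. The RefSeq exons of RBCS1B and RBCS3B are longer than the deposited ones. They hold 1597 and 1113 windows of 100 bases, against 808 and 999 deposited exon bases. The RBCS1B window ends in gataa, the first bases of the I-box core, and bases past its edge were not searched. Whether the windows of the copies lie at like distances from the starts in use was not tested. The 12 genes with CCAATC had a median log2 fold change of -0.38, and the 34 without it -0.40. The 9 genes with a G-box, PSAE2 among them, had a median of -0.48, and the 37 without it -0.38. These are letter matches near annotated starts and do not show binding.

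Since both insertions lie in genes for splicing-associated proteins, the next comparison asked whether introns of the photosynthesis genes were retained. No tested intron of these genes passed as more retained in acinus-2 pnn, and 6 passed as less retained by the test alone. Intron reads were compared with those of both neighbouring exons, and the change with genotype was tested in edgeR over 25534 introns. Of 75 introns between the deposited exons of the 46 genes, 70 had enough reads. Introns within a deposited exon are not among these, as with the RCA intron that follows both donors shown above. Another annotated RCA protein, of 441 residues, has a coding region that runs past both donors. Retention of that intron was not tested. At an adjusted p under 0.05, a fold above 2 and a retained share above 5%, 0 of the 70 were called. Over all tested introns, this rule called 0.768% higher and 0.047% lower in acinus-2 pnn. The retained share here is intron reads over those of the intron and both whole neighbouring exons, which is not a splicing efficiency. Its highest genotype mean was 1.28%, for intron 1 of LHCB2.3, so that none could reach 5%. The highest share in a single library was 2.18%, for intron 5 of LHCA5, which had 14 intron reads in all libraries together. By the test alone, 0 were higher and 6 were lower, where 0.967% of all tested introns were higher and 0.192% lower. At an unadjusted p under 0.05, 31 were lower and 3 were higher, where 4.91% of all tested introns were lower and 6.22% higher. With spliced reads as the reference, the call rule gave 3 of 68 introns, all lower in acinus-2 pnn. All lie in RBCS1B and RBCS3B, which are close copies. Against spliced reads, intron 1 of RBCS1B stood at 22.9% in WT and 8.91% in acinus-2 pnn. Its intron 2 stood at 5.85% and 2.49%, and intron 1 of RBCS3B at 5.02% and 2.01%, in the same order. Introns are numbered along the chromosome, so that intron 1 is the last one in these minus-strand genes. Against the neighbouring exons, intron 1 of RBCS1B stood at 0.364% in WT and 0.247% in acinus-2 pnn, and none of these 3 introns passed. Spliced reads over that intron were thus far fewer than exon reads, and its 22.9% rests on them. Over the 17749 introns tested with spliced reads as the reference, 0.0845% were called lower and 0.789% higher.

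Across the 70 introns, 56 had a lower ratio in acinus-2 pnn, and the median log2 change was -0.45. Over all tested introns, 51.9% were lower, with a median of -0.03. For comparison, 153 introns of other genes had a retained share under 1% in WT and at least 100 intron reads. In that set, chosen after the data were seen, the median was -0.12 and 60.8% were lower. Its median retained share in WT was 0.593%, against 0.297% for the 70 introns. Choosing introns by a low WT share can itself shift their changes upward, which was not tested. Summed as reads, the introns of the photosynthesis genes made up 0.198%, 0.174% and 0.160% of intron and exon reads in acinus-2 pnn, against 0.255%, 0.232% and 0.246% in WT. Over all tested introns the order was the opposite, with 1.84%, 1.83% and 1.87% in acinus-2 pnn against 1.66%, 1.61% and 1.65% in WT. The libraries of the genotypes did not overlap in either set. Without the RBCS genes, the first set gave 0.206%, 0.181% and 0.167% in acinus-2 pnn, against 0.268%, 0.246% and 0.264% in WT. Intron reads of unspliced and of retained transcripts cannot be told apart in these data.

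**Figure D4:**
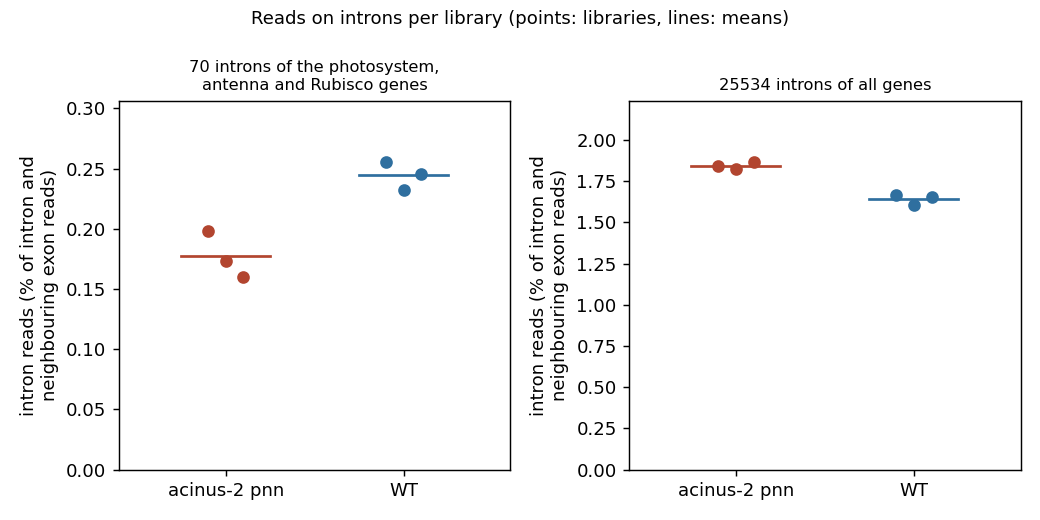
Reads on introns as a percentage of the reads on introns and their neighbouring exons (vertical axes from 0), for the photosynthesis genes on the left and all genes on the right, a point per library and a line for the mean. In acinus-2 pnn, left of WT in each panel, the share is lower for the photosynthesis genes and higher for all genes.

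The 6 introns that passed by the test alone came from antenna genes, an oxygen-evolving protein and the activase. The shares that follow are of the reads on an intron and both its neighbouring exons. The LHCA1 intron shown above (the last of the 2 in the deposited model) held 0.0767%, 0.0557% and 0.0679% in acinus-2 pnn, against 0.169%, 0.191% and 0.205% in WT. Its log2 change was -1.50 ± 0.27 (SE), with an adjusted p of 0.00080 by edgeR, on 15, 10 and 15 intron reads in acinus-2 pnn and 29, 55 and 53 in WT. The other LHCA1 intron changed by -1.06. Intron 4 of LHCB5 held 0.390%, 0.416% and 0.346% in acinus-2 pnn, against 0.770%, 0.763% and 0.655% in WT (log2 change -0.93, adjusted p = 0.0041 from edgeR). Intron 1 of LHCB3 stood at 0.274%, 0.285% and 0.313% in acinus-2 pnn, against 0.493%, 0.513% and 0.702% in WT (log2 change -0.97). In these introns the genotypes did not overlap. One intron each of PSBQ2 and RCA changed by -1.38 and -0.94, on 100 and 186 intron reads in all.

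Splice site choice in the photosynthesis genes showed no call. RCA junction reads were split nearly evenly between the donors of its long and short proteins. The upstream donor, which leads to the long protein of 474 residues, took 50.2%, 50.3% and 51.4% of the reads of both donors in acinus-2 pnn, against 50.5%, 50.8% and 51.1% in WT. The downstream donor leads to the short protein of 446 residues. The genotypes overlapped, with means of 50.6% ± 0.663 in acinus-2 pnn and 50.8% ± 0.287 in WT (SD, n = 3 each) and a p of 0.7 in a two-sided exact permutation test. The 95% Wilson intervals of single libraries, which cover counting error only, reached from 49.1% to 52.4%, on between 7203 and 11140 reads. Over all genes, 3896 events of alternative donors or acceptors were compared by Fisher's exact test within all 9 pairs of libraries, of which 0.205% were called. Of 31 such events in 12 photosynthesis genes, 0 were called. Apart from the RCA junctions, each was a minor form with a genotype mean of at most 2.85% or the major form beside it. A call needed a frequency above 5% and a fold above 2. The minor forms lay under that frequency and the major forms changed by at most 1.03-fold, so that none of these could be called. On reads summed per genotype, with the same minimum frequency and fold, 0 of the 31 events were called, against 2.31% of all events. At a frequency above 1% again 0 were called, against 0.282%. Reads that skip an exon numbered at most 2 per library in any gene, apart from LHCB4.3. There, the 51, 39 and 79 reads in acinus-2 pnn and the 84, 128 and 118 in WT pass over the middle exon of the deposited model.

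Nuclear genes of electron transport and the Calvin cycle were also mostly lower, while other lists were mixed. These lists were chosen with earlier results known. Of 12 nuclear genes of electron transport and ATP synthase, 12 were lower and their median was -0.40 on the log2 scale. The plastocyanin gene PETE1 had 81.0, 85.2 and 88.8 RPKM in acinus-2 pnn, against 128, 138 and 126 RPKM in WT. The leaf ferredoxin gene FD2 had 648, 597 and 656 RPKM in acinus-2 pnn, against 989.6, 997 and 929 RPKM in WT. Their log2 fold changes were -0.63 and -0.62. Of 16 Calvin cycle genes, 14 were lower, with a median of -0.31, led by GAPA2 and RPE. GAPA2, a subunit of glyceraldehyde-3-phosphate dehydrogenase, had 283, 262 and 289.9 RPKM in acinus-2 pnn, against 400.0, 426 and 402 RPKM in WT (-0.56). RPE, ribulose-phosphate epimerase, had 147, 139 and 159 RPKM in acinus-2 pnn, against 204, 218 and 201 RPKM in WT (-0.49). Neither overlapped between the genotypes. The enzymes of chlorophyll synthesis were divided, with 9 of 23 lower and 2 higher. HEMA1, which encodes the enzyme at the first committed step, had 56.7, 50.1 and 66.9 RPKM in acinus-2 pnn, against 108, 124 and 109 RPKM in WT (log2 fold change -0.98). GUN4, which activates magnesium chelatase, had 79.7, 69.9 and 78.9 RPKM in acinus-2 pnn, against 117, 131 and 113 RPKM in WT (log2 fold change -0.66).

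**Figure D5:**
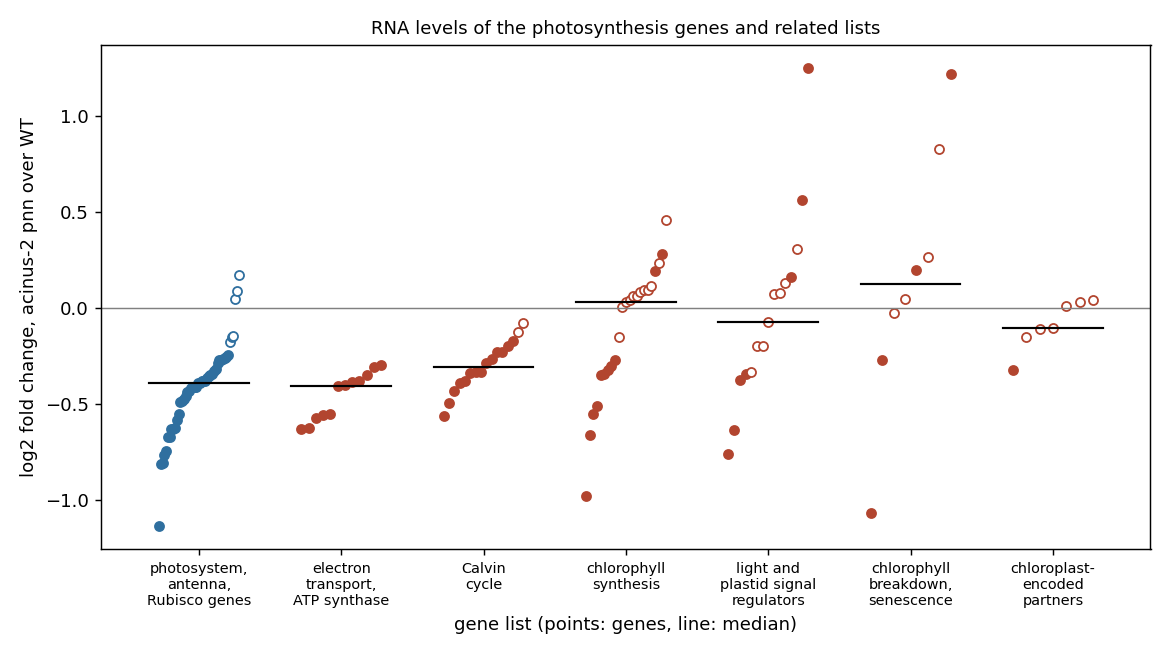
Log2 fold change, acinus-2 pnn over WT (vertical axis), of each gene in the photosystem, antenna and Rubisco set and in 6 related lists, with a line for the median of each list and open circles for genes that did not pass an adjusted p of 0.02. Electron transport and Calvin cycle genes lie below 0, and the other lists spread around it.

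Among 16 regulators of light and plastid signalling, 15 could be tested, 4 were lower and 3 higher. GLK1, which activates antenna and chlorophyll genes, had 33.3, 29.3 and 32.1 RPKM in acinus-2 pnn, against 55.6, 52.6 and 51.4 RPKM in WT (log2 fold change -0.76, adjusted p = 1.2e-06 from edgeR). PIF4, a phytochrome-interacting bHLH factor, had 14.2, 16.7 and 16.8 RPKM in acinus-2 pnn, against 5.28, 7.83 and 6.67 RPKM in WT (log2 fold change 1.25). Both were separated between the genotypes in every library. The related GLK2 had a log2 fold change of -0.63, whereas HY5, a bZIP activator of light responses, did not pass the test at -0.20. Genes of chlorophyll breakdown and senescence went both ways, 2 of 8 tested lower and 2 higher. SAG13, a senescence-associated gene, had 9.66, 11.1 and 10.1 RPKM in acinus-2 pnn, against 2.78, 4.62 and 5.48 RPKM in WT (log2 fold change 1.22). NAP, a NAC factor of senescence, had 0.842, 1.68 and 1.81 RPKM in acinus-2 pnn, against 2.32, 3.92 and 2.79 RPKM in WT (log2 fold change -1.07). The genotypes were separated in both. Of 7 chloroplast-encoded partners only psbA, for the D1 protein of photosystem II, was lower, with 855, 885 and 748 RPKM in acinus-2 pnn against 1086, 939 and 1074 RPKM in WT. The log2 fold change was -0.32 (adjusted p = 0.013 from edgeR), but on TMM-scaled counts the genotypes overlapped for psbA. The large subunit gene rbcL did not pass at -0.15 (adjusted p = 0.052 from edgeR), although every acinus-2 pnn library lay below every WT library. Nor did psbB at -0.11 and psbC at -0.10, and psaA, psaB and psbD were between 0.01 and 0.04. The library protocol does not say how well RNA without a long poly(A) tail was captured.

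Markers of other cell types moved as well. Of 12 root markers, 11 could be tested, 9 were lower and 1 (WOX5) higher. Their summed level ranged from 35.5 to 38.3 CPM in acinus-2 pnn, against 72.9 to 77.8 CPM in WT, and none of the 12 was at 0 in all libraries. Of 7 markers of the stomatal lineage, 3 were lower (38.6 to 45.1 CPM in acinus-2 pnn, against 56.4 to 57.0 CPM in WT), and of 6 vascular markers 2 were lower (163.5 to 166 CPM in acinus-2 pnn, against 189 to 202 CPM in WT). Of 4 epidermal markers, 2 were higher (449 to 484 CPM in acinus-2 pnn, against 408 to 417 CPM in WT). Of 4 shoot meristem markers, 2 could be tested and both were higher (STM at a log2 fold change of 1.26 and KNAT1 at 0.58). The photosynthesis genes themselves mark green tissue, and the part of tissue composition in their levels was not tested. Of the 500 nuclear genes with the highest RPKM in WT, leaving out the single most abundant gene, 43 were of this set and 37 of those were lower, against 30.6% of the other 457, whose median log2 fold change was 0.03. In WT, 41 of the 46 genes ranked among the 100 most abundant of these nuclear genes and 6 among the first 10.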

How the data were processed

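RNA from whole seedlings was sequenced by the authors in 3 acinus-2 pnn and 3 WT libraries, which took their group from the labelled genotype. The labels' processing notes name STAR and DESeq2, and the paper names RACKJ and TAIR10. The authors deposited expected counts of reads per gene, exon and intron, in which shared reads are split as fractions. They also deposited RPKM, made per exon length and depth, a fraction of shared reads per feature, and a count of spliced reads per junction. Depth ranged from 18890178 to 27622690 reads on genes. RPKM was used for levels and for limma.

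Expected counts were rounded and tested with edgeR 4.0.16 (R 4.3.3) after filterByExpr and TMM, with no covariate, over 20962 of 33602 genes. Standard errors of genes and introns were taken as the absolute log2 change divided by the square root of the F statistic of the test. Genes passed at an adjusted p-value under 0.02, alone or with a fold above 2, the thresholds of the paper's methods. Introns needed 10 intron reads in all and 10 exon reads in each library, and a call needed an intron RPKM above 1. DESeq2 1.42.0 and limma 3.58.1 (log2 of RPKM plus 0.1 or 1) served as alternatives. Alternative sites and permutation tests used scipy 1.17.1 in Python 3.11.15. The tests of genes, introns and alternative sites were tried on simulated data. The genes, the lists and the rules were chosen with earlier results of these data known. Values per library are given for genes called with fold, in each group the 2 largest changes and the smallest, the close copies and RCA, and in each other list the 2 largest changes. Motif windows and sequences came from TAIR10.1, whose intron lengths equalled the deposited ones for the introns printed. A library kit without a stated strand was used, so reads of overlapping genes on opposite strands cannot be told apart. With 3 libraries per genotype, p-values measure the spread between these libraries only.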

Additional observations from a re-analysis of the deposited data

How the results depend on the processing

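No paired analysis was possible because the labels give the acinus-2 pnn and WT libraries no replicate number in common. Between 39 and 43 of the 46 genes were lower by the test alone under 17 alternatives, and between 40 and 42 with each library left out. The count of higher genes was 0 under 16 of them and 1 without WT replicate 4, the range with each library left out being 0 to 1. Genes past the test with fold numbered 1 under 16 alternatives and 4 under the test against a fold change of 1.5. The median log2 fold change of the 46 genes lay between -0.41 and -0.38 with each library left out and at -0.42 with upper-quartile scaling. Introns called numbered 0 under 8 alternatives and 3, all lower in acinus-2 pnn, with spliced reads as the reference. The summed share of reads differed by -1.51 percentage points between acinus-2 pnn and WT, by -1.76 on nuclear reads only, where the smaller total is the cause, and by -1.65 to -1.31 with each library left out. The share of the upstream RCA donor differed by -0.52 to 0.09 percentage points with each library left out. No gene changed direction under any alternative. LHCA1, LHCB1.2, LHCB1.4 and PSBO1, not past the test, passed it under at least 1 alternative, and RBCS1A missed it with limma. The cause was not tested.

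Depth limits only the scarcest values here, such as introns with few reads. The division of reads among close copies of LHCB1 and RBCS limits the values of single copies more than the sums over families.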

Other observations

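Some junctions of the photosynthesis genes were found in one library alone and were chosen after their values were seen. A junction of RBCS1A that leaves out 21 bases at one exon end had 1077 reads in WT replicate 5 and at most 2 reads in any other library. Within RCA, a gap within exon 2 of the deposited model, counted along the chromosome, had 523 reads in WT replicate 4. Another RCA junction had 428 reads in acinus-2 pnn replicate 12, and both had 0 in every other library. A junction that joins RBCS3B with a position in RBCS1B had 219 reads in acinus-2 pnn replicate 12 only. A junction that joins LHCB1.3 with a position in LHCB1.1 had 718 reads in WT replicate 4 and at most 1 in any other. No explanation of these was tested, and no call rests on them.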
